A study of Homo sapiens with 18 samples.

Results

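The 37 genes described here encode the chaperones of the cytosol and of the mitochondrial matrix, with the heat shock transcription factor HSF1. They were chosen by name, with earlier results of these data known. The list held 10 stress-inducible chaperones and co-chaperones, 14 constitutive ones, the 8 subunits of the CCT ring, 4 mitochondrial chaperones and HSF1. All 37 were found among the 38716 gene symbols of the tables. Their mRNA and their ribosome footprints were measured in IMR90, human fetal lung fibroblasts that stop dividing after serial passage. Young cells were of low passage and proliferating, old cells were of high passage and had reached replicative senescence by passaging, and ICM cells were of low passage and were given inflachromene, a compound known to bind the high mobility group proteins HMGB1 and HMGB2. Per the study's methods the cells were single isolates of this one cell strain, and all cells were lysed in cycloheximide, which halts ribosomes on the mRNA. Poly(A) RNA from a portion of each lysate gave the mRNA-seq library, and the remainder gave the Ribo-seq library, for 3 lysates of each condition and 18 libraries in all. These numbers are those of the sample titles and the methods, whereas the series' design text counts 4 young, 4 old and 2 ICM samples, and the labels of RNA type for the assays go against the methods. Which libraries were prepared together is not given in the sources used here, so preparation and condition cannot be told apart.

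Chaperones bind unfolded or partly folded proteins and keep them from clumping. HSP70 proteins work in cycles of ATP hydrolysis with HSP40 partners (the DNAJ genes), which bring them clients, and with HSP110 and BAG proteins, which release their nucleotide, whereas HSP90 matures kinases and steroid receptors with its co-chaperones. Small heat shock proteins hold unfolded clients without ATP, and the CCT ring folds actin and tubulin in a closed chamber built of different subunits. In mitochondria HSPA9 pulls in imported proteins and the HSPD1 and HSPE1 chamber folds them. HSF1 is held inactive by chaperones in unstressed cells and drives the inducible members when unfolded protein accumulates, through heat shock elements made of inverted GAA units.

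Levels below are CPM, the reads of a gene relative to the scaled read total of its library, from reads in the 5′ UTR, CDS and 3′ UTR for mRNA and from CDS reads for footprints. The mRNA libraries held 7902430 to 14144500 such reads, and every member had at least 10 of them in each library. The Ribo-seq libraries held 46238.7 to 1718520 CDS reads. By replicate these were 54420.5, 685061 and 1718520 in young and 1672810, 54708 and 583798 in old. The ICM libraries held 225041, 78979.8 and 46238.7, so depth in footprints went partly with condition. The members under 10 reads ranged from 1 in young replicate 3 and old replicate 1 to 16 in old replicate 2. Young replicate 1 and old replicate 2 stood apart in Ribo-seq, with 34.4% and 15.0% of reads in the CDS against 54.7% to 88.8% in the other libraries. All 10 fibroblast markers had reads in every mRNA library, and their summed level was 31958 to 36194 CPM in young, 31337 to 36384 in old and 14262 to 14738 in ICM. Of the other cell types, CDH5 and CD3E were at 0 in all mRNA libraries, EPCAM and PTPRC means were under 1 CPM, and the epithelial sum, most of it KRT18, had 312 to 333 CPM for young and 44.6 to 50.6 for ICM. In young libraries the immune sum, most of it CD68, reached 19.5 to 21.6 CPM, with 32.4 to 35.6 in old and 53.9 to 66.1 in ICM, and the endothelial sum reached at most 4.66. The part of these shifts in the chaperone results was not tested. The proliferation gene MKI67 was at 152.5 CPM in young, 30.8 in old and 0.789 in ICM.

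The chaperones as a group took a smaller part of the mRNA in both arrested states. Their reads made up 0.961% to 0.997% of the coding mRNA reads of young libraries, 0.783% to 0.796% of old ones and 0.816% to 0.826% of ICM ones. These shares use unscaled read totals, under which the median log2 change of all genes was -0.11 in old and 0.02 in ICM against young. They therefore do not rank old against ICM. In bulk lysates, less RNA per cell and fewer cells that make it cannot be told apart. A member was called changed where edgeR's quasi-likelihood test gave a Benjamini-Hochberg adjusted p under 0.05 over all genes tested. In mRNA, ICM against young, 28 of 37 members were called, 8 higher and 20 lower, where 71.0% of 13173 tested genes were called, 34.9% higher and 36.1% lower. In old against young 32 were called, 9 higher and 23 lower, against 66.1% of all genes, 32.4% higher and 33.7% lower. By role, the CCT ring and the mitochondrial members had all of their genes called lower in both comparisons. Both comparisons used the same 3 young libraries.

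**Figure D1:**
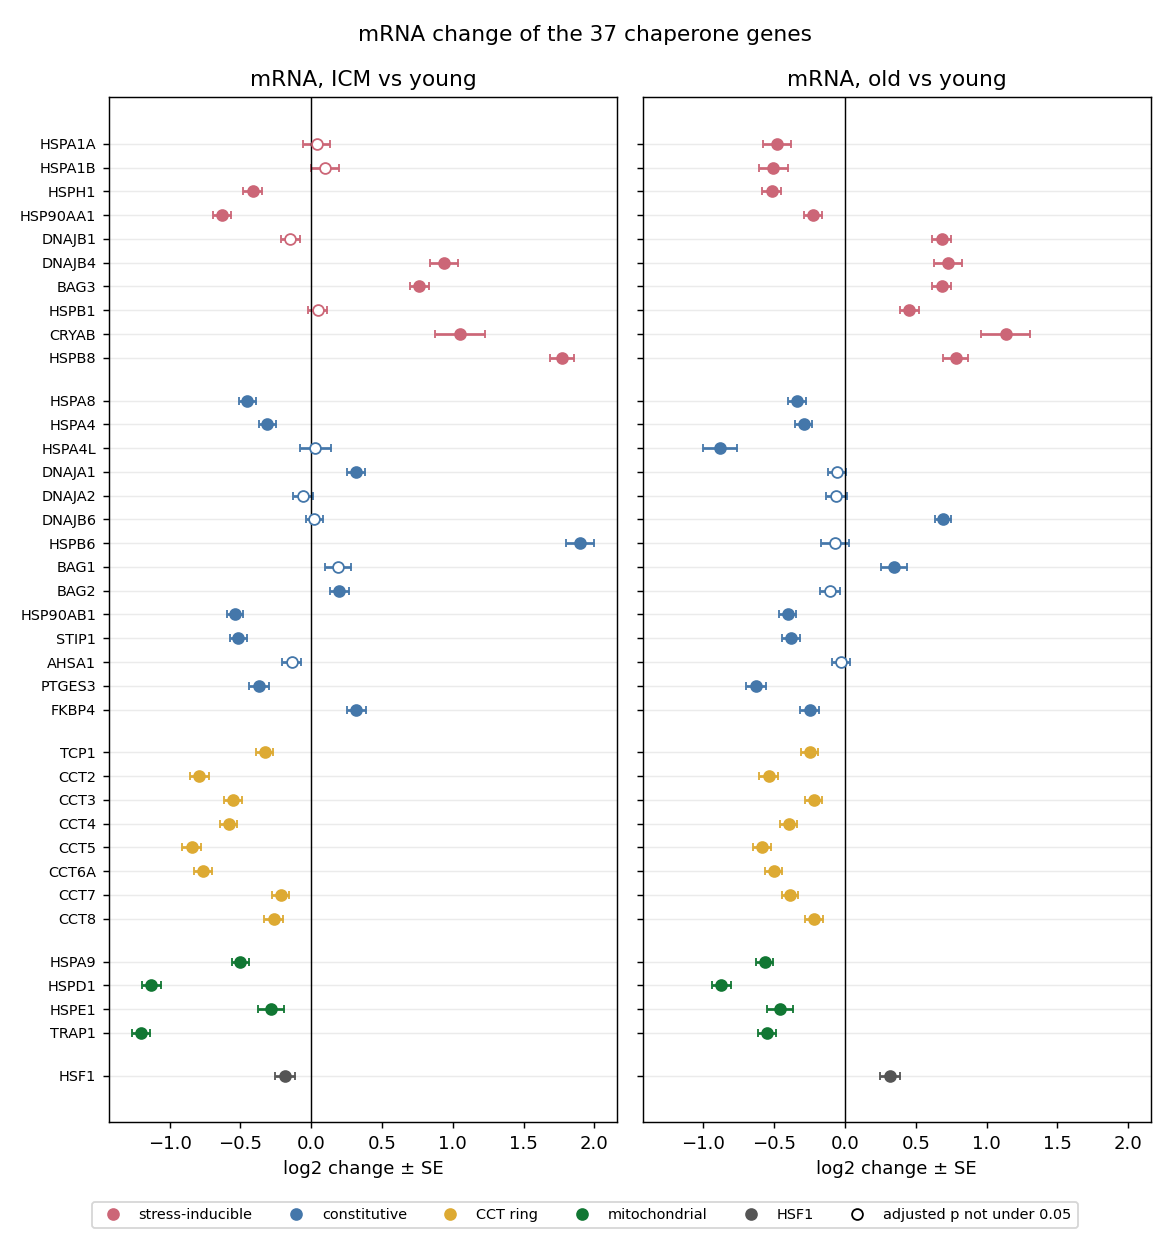
Fitted log2 change ± SE of mRNA for each of the 37 genes, ICM vs young on the left and old vs young on the right, grouped and coloured by role, with open points where the adjusted p was not under 0.05. All 12 CCT ring and mitochondrial genes lie left of 0 in both panels, HSPB8 and HSPB6 lie farthest right in ICM, and the inducible genes lie on both sides of 0.

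The stress-inducible members did not move as one group. In old cells all 10 were called, 6 higher and 4 lower, with a median log2 change of 0.57, where 66.1% of all genes were called. The 4 lower include HSPA1A and HSPA1B, a pair that shares reads and cannot count as separate evidence. In ICM cells 6 were called, 4 higher and 2 lower, with a median of 0.07, where 71.0% of all genes were called. The small heat shock protein genes HSPB8 and CRYAB, BAG3 and the HSP40 gene DNAJB4 were higher in both states, whereas the HSP90 gene HSP90AA1 and the HSP110 gene HSPH1 were lower in both states.

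HSPB8, a small heat shock protein that works with BAG3 to send damaged proteins to autophagy, had the largest rise of the inducible set in ICM. Its mRNA was 28.2, 26.1 and 28.5 CPM in the young libraries, 50.9, 48.9 and 42.1 in the old ones, and 87.7, 92.6 and 101 in the ICM ones. The 3 groups did not overlap, and the order young, old, ICM held for every library. The log2 change was 1.77 ± 0.08 (SE) in ICM against young (adjusted p = 1.3e-14) and 0.78 ± 0.09 in old against young (adjusted p = 5.8e-08). BAG3, the partner that links HSPB8 to HSP70, rose by 0.76 ± 0.07 in ICM and 0.68 ± 0.07 in old, from 106 to 113 CPM in young to 177 to 197 in ICM and 163 to 186 in old. These ICM and old libraries overlapped, and the difference between them was 0.08 ± 0.06 (adjusted p = 0.29).

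CRYAB, the alpha-B crystallin, had the largest inducible rise in old cells but was scarce. Its mRNA was 3.60, 3.14 and 3.62 CPM in young, 6.34, 8.96 and 6.95 in old, and 7.21, 6.19 and 7.88 in ICM. Both arrested groups lay above young and overlapped each other. The log2 change was 1.13 ± 0.17 in old (adjusted p = 6.1e-06) and 1.05 ± 0.17 in ICM (adjusted p = 1.4e-05). CRYAB was not tested in footprints, where 7 of 9 libraries had reads for it and none had more than 9. DNAJB4 rose by 0.94 ± 0.10 in ICM and 0.73 ± 0.10 in old. Its mRNA was 65.3 to 93.0 CPM in young, 117 to 136 in old and 137 to 149 in ICM.

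DNAJB1 and HSPB1 were called higher in old cells and not in ICM. DNAJB1, the HSP40 that brings HSP70 its clients under heat stress, was at 101 to 116 CPM in young, 168 to 181 in old and 94.6 to 101 in ICM. It rose by 0.68 ± 0.06 in old (adjusted p = 4.3e-09), and its change in ICM was -0.15 ± 0.07 (adjusted p = 0.050). HSPB1, the small heat shock protein HSP27, rose by 0.45 ± 0.07 in old, and its ICM libraries at 584 to 630 CPM overlapped the young ones at 555 to 597. The direct test of ICM against old gave -0.83 ± 0.06 for DNAJB1 (adjusted p = 1.4e-10) and -0.41 ± 0.07 for HSPB1 (adjusted p = 1.7e-05), so both differed between the arrested states.

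HSP90AA1, the inducible HSP90, was the inducible member that fell most in ICM. Its mRNA was 1202, 1176 and 1181 CPM in young, 990, 1075 and 978 in old, and 781, 784 and 734 in ICM. No 2 groups overlapped, with ICM lowest. The fall was -0.63 ± 0.06 in ICM (adjusted p = 4.9e-09) and -0.23 ± 0.06 in old (adjusted p = 0.0026). HSPH1, an HSP110 that recharges HSP70 with ATP, was at 119, 122 and 130 CPM in young, 86.6, 88.0 and 84.9 in old, and 91.1, 99.8 and 88.0 in ICM. It fell by 0.52 ± 0.07 on the log2 scale in old and by 0.41 ± 0.06 in ICM, and all 6 arrested libraries lay below the young ones.

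The major inducible HSP70 is made from a pair of neighbouring genes, HSPA1A and HSPA1B, on chromosome 6 (GRCh37, chr6:31783320-31785723 and chr6:31795515-31798031, both on the plus strand). Their coding sequences, 1923 bases each without the stop codon, differed at 4 bases, and 95.8% of the 30-base windows of HSPA1A occurred unchanged in HSPA1B. Coding bases 1891 to 1920, read from the GRCh37 genome, hold 2 of these differences, here in capitals:
HSPA1A (chr6:31785424-31785453): tctgggtcaggcccCaccattgaggaggtA
HSPA1B (chr6:31797618-31797647): tctgggtcaggcccTaccattgaggaggtG
Reads of these genes were split as parts of a read in 16 and 15 of the 18 libraries, so the levels of the pair are uncertain as single genes and cannot count as separate evidence.

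HSPA1A mRNA was 45.0, 49.7 and 54.0 CPM in young, 36.5, 29.6 and 41.5 in old, and 52.1, 46.5 and 54.5 in ICM. HSPA1B was at 44.02, 48.2 and 54.3 in young, 34.3, 29.6 and 40.2 in old, and 54.7, 46.7 and 55.6 in ICM. The old libraries lay below the young ones for both genes, and the ICM libraries overlapped the young ones. In old cells HSPA1A fell by 0.48 ± 0.10 (adjusted p = 0.00026) and HSPA1B by 0.51 ± 0.10 (adjusted p = 0.00016) on the log2 scale. In ICM the changes were 0.04 ± 0.10 and 0.10 ± 0.10 (adjusted p = 0.73 and 0.38). Per kilobase of coding sequence and scaled to total CDS reads, young mRNA held 33.6 ± 2.92 (SD, n = 3) for HSPA1A and 1206 ± 58.1 for its constitutive relative HSPA8. On that scale HSPB1 was at 1283 ± 90.4, a difference from HSPA8 within the spread, and HSP90AA1 at 673 ± 21.8.

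**Figure D2:**
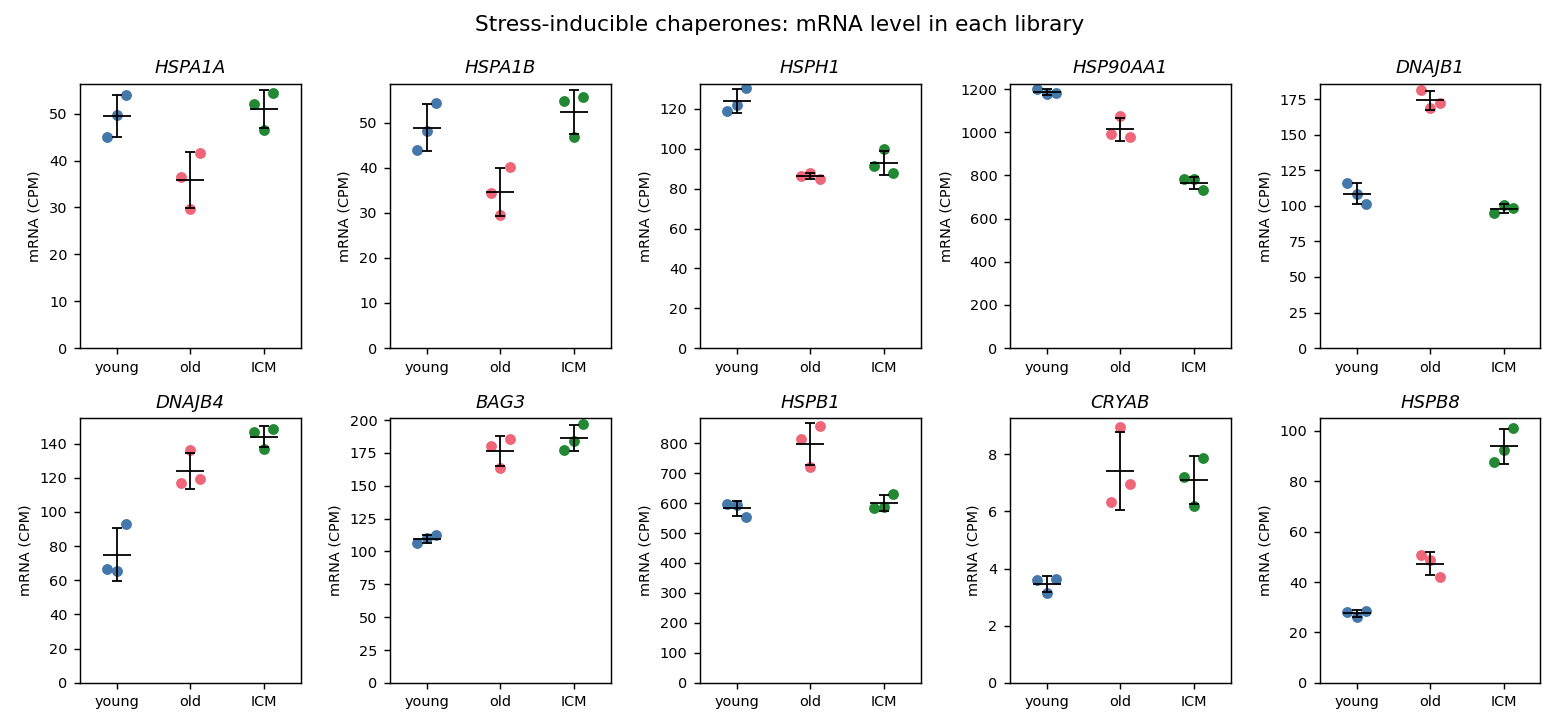
mRNA level (CPM, linear axis from 0) of the 10 stress-inducible genes in each library of young, old and ICM cells, with points for libraries and a bar for the mean ± SD (n = 3). HSPB8 steps up from young to old to ICM, DNAJB1 and HSPB1 are high in old only, and HSP90AA1 steps down.

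The constitutive members also moved both ways. In ICM 9 of 14 were called, 4 higher and 5 lower, and in old 9 were called, 2 higher and 7 lower, with median log2 changes of -0.02 and -0.18. These counts stand beside 71.0% and 66.1% of all genes called and lie near them. HSPA8, the constitutive HSP70, fell by 0.45 ± 0.06 in ICM and 0.34 ± 0.06 in old on the log2 scale. STIP1, which couples HSP70 to HSP90, fell by 0.51 ± 0.06 and 0.38 ± 0.06, and the HSP110 gene HSPA4 by 0.31 ± 0.06 and 0.29 ± 0.06. HSP90AB1, the constitutive HSP90 and the constitutive member with the largest fall in ICM, was at 968, 947 and 921 CPM in young, 715, 717 and 711 in old, and 648, 677 and 626 in ICM. It fell by 0.54 ± 0.06 in ICM (adjusted p = 3e-08) and 0.40 ± 0.06 in old (adjusted p = 2.7e-06), and the groups did not overlap.

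HSPB6, a small heat shock protein best known from muscle, had the largest rise of all 37 genes. Its mRNA was 160, 178 and 125 CPM in young, 149, 138 and 155 in old, and 565, 641 and 518 in ICM. Every ICM library lay far above every young and old one, which overlapped each other. The log2 change was 1.90 ± 0.10 in ICM against young (adjusted p = 8e-14), -0.07 ± 0.10 in old against young (adjusted p = 0.54) and 1.97 ± 0.10 in ICM against old. Per kilobase of coding sequence, HSPB6 mRNA rose from 150 ± 21.0 to 712 ± 65.3 (SD, n = 3), beside 914 ± 17.4 for HSPA8 in the same ICM libraries.

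A second set moved in old cells. DNAJB6, an HSP40 that keeps aggregation-prone proteins soluble, was at 180, 173 and 170 CPM in young, 279, 293 and 273 in old, and 177, 173 and 181 in ICM. It rose by 0.69 ± 0.06 in old (adjusted p = 8.3e-10) and its ICM libraries overlapped young, with a change of 0.02 ± 0.06. HSPA4L, a less abundant HSP110, was at 10.9, 11.5 and 12.3 CPM in young, 5.91, 6.67 and 6.21 in old, and 12.3, 11.7 and 11.4 in ICM. Its log2 change was -0.88 ± 0.12 in old (adjusted p = 1.3e-06), and ICM and young overlapped. BAG1 rose in old by 0.35 ± 0.09, and DNAJA1 and BAG2 rose in ICM by 0.32 ± 0.06 and 0.20 ± 0.07. The BAG2 call was lost without young replicate 2 (adjusted p = 0.079). AHSA1, an activator of the HSP90 ATPase, and DNAJA2 were called in no mRNA comparison.

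FKBP4, an HSP90 co-chaperone of steroid receptors, was called in opposite directions. Its mRNA was 92.0, 82.3 and 81.4 CPM in young, 76.2, 71.0 and 67.8 in old, and 104, 108 and 107 in ICM, and the 3 groups did not overlap. It rose by 0.32 ± 0.07 in ICM (adjusted p = 2e-04) and fell by 0.25 ± 0.07 in old (adjusted p = 0.0030) on the log2 scale. The direct difference of ICM and old was 0.57 ± 0.07 (adjusted p = 1.5e-07). PTGES3, the HSP90 co-chaperone p23, fell in both states and is described with its footprints.

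HSF1, the regulator of the inducible set, was called in both comparisons. Its mRNA was 101, 102 and 89.0 CPM in young, 124, 116 and 124 in old, and 83.8, 91.6 and 81.6 in ICM. It was higher in old by 0.32 ± 0.07 (adjusted p = 0.00035), with no overlap. In ICM it fell by 0.19 ± 0.07 on the log2 scale (adjusted p = 0.021), but an ICM library lay above a young one. That call was lost without young replicate 1, young replicate 2, ICM replicate 1 or ICM replicate 3 (adjusted p = 0.082, 0.11, 0.078 and 0.10). HSF1 and FKBP4 were the members called in opposite directions in ICM and in old, and the difference of HSF1 between ICM and old was -0.50 ± 0.07 (adjusted p = 1.3e-06).

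Promoter windows from RefSeq (GRCh38.p14), running from 250 bases before to 50 bases after a transcription start, were matched for 33 of the 37 genes, all but CCT6A, CRYAB, FKBP4 and HSF1. Both strands were searched, which is the same search for these palindromes. An element of 2 inverted units, GAANNTTC or TTCNNGAA, lay in 20 of 33 members (60.6%) and in 16.2% of the 27305 genes with a window. An element of 3 units, GAANNTTCNNGAA or TTCNNGAANNTTC, which overlaps 2 elements of 2 units, lay in 6 members (18.2%) and in 0.608% of all genes. By role, the element of 2 units lay in 7 of 9 inducible members, 8 of 13 constitutive ones, 3 of 7 CCT subunits and 2 of 4 mitochondrial ones. The members with 3 units were HSP90AA1, HSP90AB1, HSPA8, HSPD1, DNAJB6 and DNAJA1. The first 4 of these fell in mRNA in both arrested states, DNAJB6 rose in old and DNAJA1 rose in ICM. The following 30 bases show the element of each gene upstream of the start in capitals, except DNAJA1, in which it lies just after the start:
HSP90AA1 (chr14:102087111-102087140, minus strand): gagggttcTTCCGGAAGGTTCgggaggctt
HSP90AB1 (chr6:44247823-44247852, plus strand): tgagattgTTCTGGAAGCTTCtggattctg
HSPA8 (chr11:123062170-123062199, minus strand): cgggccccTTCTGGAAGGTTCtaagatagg
HSPD1 (chr2:197500061-197500090, minus strand): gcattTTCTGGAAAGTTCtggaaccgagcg
DNAJB6 (chr7:157336865-157336894, plus strand): agagccgaGAACCTTCGCGAAggtggggcg
In HSPD1 a further unit directly follows, so that 2 elements of 3 units overlap there. HSP90AB1 and HSPA8 each hold a second one in their windows.

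Several inducible genes held only elements of 2 units, shown here with those in capitals to set the genes that rose beside the HSP70 pair that did not:
HSPA1A (chr6:31815426-31815455, plus strand): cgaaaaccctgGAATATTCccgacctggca
HSPA1B (chr6:31827622-31827651, plus strand): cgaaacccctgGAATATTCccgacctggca
HSPB8 (chr12:119178832-119178861, plus strand): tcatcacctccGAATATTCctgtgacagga
HSPB1 (chr7:76302480-76302509, plus strand): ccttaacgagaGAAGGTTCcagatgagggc
DNAJB1 (chr19:14518426-14518455, minus strand): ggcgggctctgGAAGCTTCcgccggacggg
DNAJB4 (chr1:78004830-78004859, plus strand): agcatttgctgTTCTAGAAagtacagagac
HSPA1A, HSPA1B and HSPB8 carried the same 8 letters in the element shown, while their mRNA moved differently in old cells. The HSPB8 window held 2 elements of the form GAANNTTC, those of HSPA1A and HSPA1B 1 each, and the DNAJB1 window shown 2. The part of the number or place of elements in these changes was not tested. The windows of BAG3 and HSPH1 held no such letters. A match is a run of letters and no record of HSF1 binding, which was not measured.

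The CCT ring fell as a set in mRNA. All 8 subunits were lower in ICM, with a median log2 change of -0.57 and a range from -0.84 for CCT5 to -0.22 for CCT7, and all 8 were lower in old, with a median of -0.39 and a range from -0.58 for CCT5 to -0.22 for CCT3 and CCT8. For comparison, 36.1% and 33.7% of all genes tested were called lower. CCT5 was at 345, 317 and 328 CPM in young, 229, 228 and 203 in old, and 190, 183 and 178 in ICM. The groups did not overlap, and ICM was below old by 0.26 ± 0.06 (adjusted p = 0.0012). For every subunit each of the 6 arrested libraries lay below the lowest young library. CCT2, CCT3, CCT4, CCT5 and CCT6A were lower in ICM than in old. CCT7 was higher by 0.17 ± 0.06 (adjusted p = 0.014), a call lost without ICM replicate 2 (adjusted p = 0.064), and TCP1 and CCT8 were not called between ICM and old. With CDS reads alone the CCT8 call in old was lost (adjusted p = 0.056).

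The subunits stand in equal number in the ring, but their mRNA as measured did not. CCT6A had parts of reads in 16 of 18 libraries. Its copies CCT6P1 and CCT6P3 drew 730 and 787 estimated mRNA reads in young, beside 6625 for CCT6A. The CCT6A share, and through the sum those of the others, is thus uncertain. In mRNA CDS reads per kilobase of coding sequence, a subunit took from 7.82% ± 0.262 (CCT8) to 16.2% ± 0.287 (CCT5) of the ring's sum in young (SD, n = 3). In ICM CCT7 took the largest share, 19.4% ± 0.693 against 15.4% ± 0.244 in young, and CCT5 fell to 13.2% ± 0.197. In old, CCT3 took the largest share at 17.6% ± 0.113, and CCT7 stood at 15.4% ± 0.416. The rank of the subunits thus differed between the 3 conditions. In footprints the shares had wider spreads. TCP1 took 9.96% ± 2.16 in young and 15.98% ± 1.82 in ICM, with 168 reads over the 3 ICM libraries, and CCT7 took 16.6% ± 4.57 and 13.5% ± 2.73.

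Footprints of the ring were lower on average, with 1 of 8 subunits called in ICM and 3 in old. Among all genes tested in footprints, 26.6% and 36.3% were called, 12.9% and 17.0% lower. In ICM the median log2 change was -0.47 and CCT2 alone was called, at -0.69 ± 0.22 (adjusted p = 0.015). In old the median was -0.43 and CCT2, CCT4 and CCT6A were called, at -0.73 ± 0.18, -0.50 ± 0.19 and -0.76 ± 0.20. TCP1 was the subunit whose fitted footprint change in ICM was above 0, at 0.13 ± 0.22 (adjusted p = 0.69). These calls were fragile. In ICM that of CCT2 was lost without young replicate 2 or young replicate 3 (adjusted p = 0.095 and 0.067), and in old without young replicate 2 (adjusted p = 0.073). That of CCT6A was lost without old replicate 1 (adjusted p = 0.050). That of CCT4, whose groups overlapped, was lost without any one of young replicates 2 and 3 or the 3 old replicates (adjusted p between 0.059 and 0.36).

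**Figure D3:**
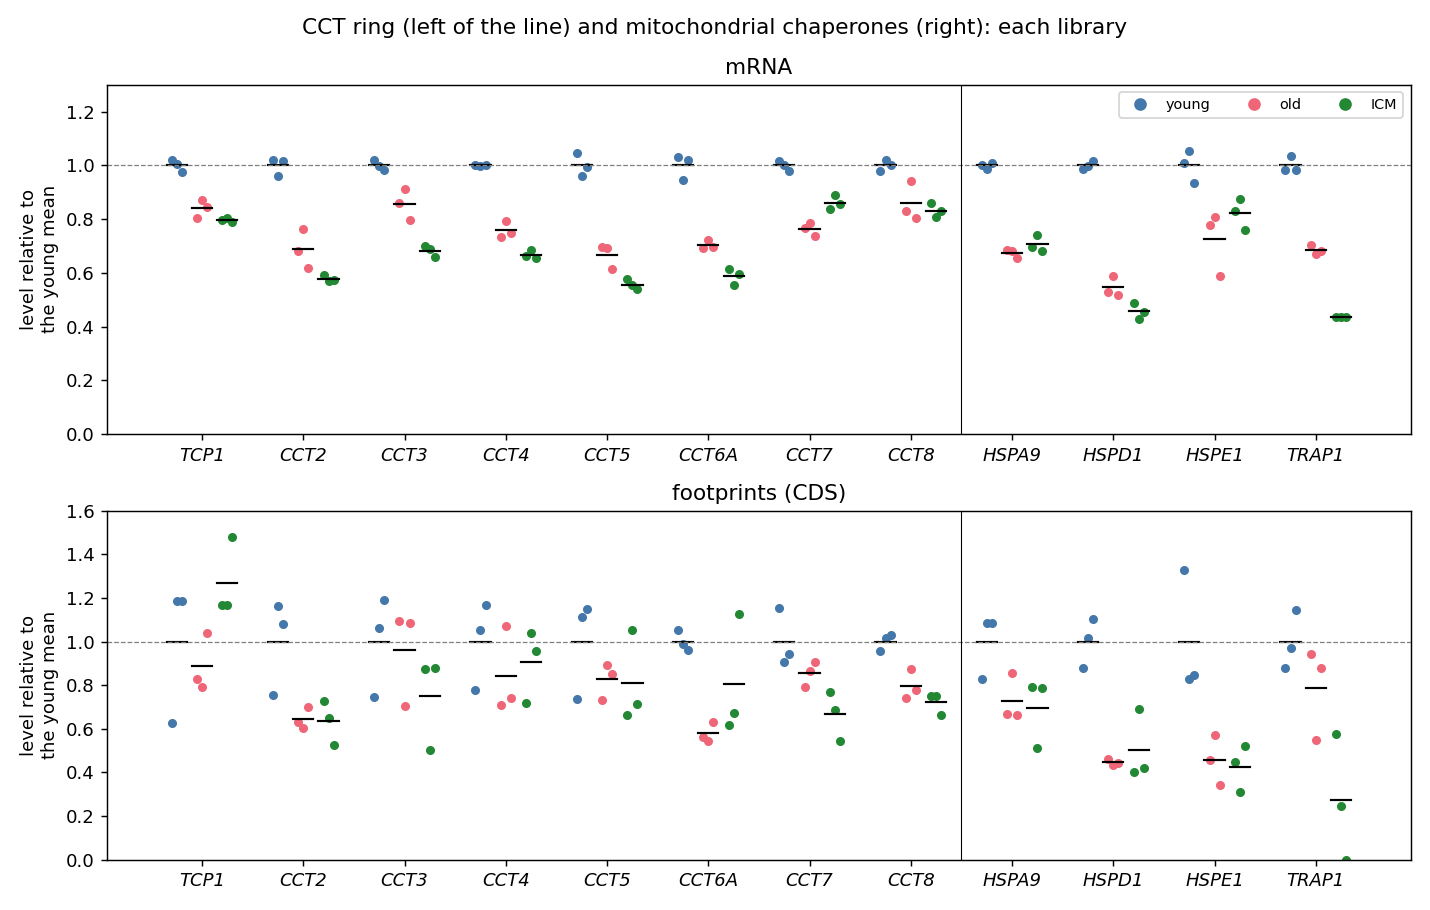
Level of the 8 CCT subunits and the 4 mitochondrial chaperones in each library, relative to the mean of the young libraries, for mRNA above and footprints below, with short bars for group means (n = 3). In mRNA every old and ICM point of these genes is below the young points, while in footprints the groups overlap for most CCT subunits and TRAP1 reaches 0 in an ICM library.

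The mitochondrial chaperones had the lowest medians of the roles. All 4 were lower in mRNA in ICM, with a median of -0.81, and in old, with a median of -0.56. For comparison, 36.1% and 33.7% of all genes tested were called lower. TRAP1, the mitochondrial HSP90, was at 86.2, 91.0 and 86.3 CPM in young, 61.7, 59.0 and 59.7 in old, and 38.1, 38.2 and 38.4 in ICM. Its log2 change was -1.201 ± 0.06 for ICM (adjusted p = 1.6e-13) and -0.55 ± 0.06 for old cells (adjusted p = 7.5e-08), and no 2 groups overlapped. HSPD1, the mitochondrial chaperonin HSP60, was at 399, 404 and 411 CPM in young, 214, 238 and 210 in old, and 198, 174 and 183 in ICM. It fell by 1.13 ± 0.07 in ICM (adjusted p = 7.3e-13) and by 0.87 ± 0.07 in old (adjusted p = 1e-10), and ICM was below old. HSPA9, the matrix HSP70, fell by 0.50 ± 0.06 and 0.57 ± 0.06.

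HSPE1, the lid of the HSPD1 chamber, starts 539 bases from HSPD1 on the opposite strand of chromosome 2 in the GRCh37 annotation. Its mRNA nonetheless fell less, by 0.28 ± 0.09 in ICM and 0.46 ± 0.09 in old, from 58.4 to 65.7 CPM in young to 47.4 to 54.5 in ICM and 36.8 to 50.5 in old. The ICM call was lost without ICM replicate 3 (adjusted p = 0.055). Reads of HSPE1 are shared with HSPE1-MOB4, a read-through transcript over the same exons that drew 2241 estimated mRNA reads in the young libraries against 1875 for HSPE1, so the level of HSPE1 is uncertain.

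Footprints of the mitochondrial members fell with their mRNA. In ICM 4 of 4 were called lower, with a median of -1.07, and in old 3 of 4, with a median of -0.84. Among all genes tested in footprints, 12.9% and 17.0% were called lower. HSPD1 footprints were 740, 858 and 929 CPM in young, 387, 364 and 374 in old, and 337, 580.5 and 352 in ICM. All arrested libraries lay below the young ones, and the log2 change was -1.09 ± 0.21 in ICM (adjusted p = 0.00016) and -1.21 ± 0.19 in old (adjusted p = 3.4e-06). Both HSPD1 calls held under every alternative tried. TRAP1 footprints were 88.0, 97.2 and 115 CPM in young, 94.1, 54.7 and 87.8 in old, and 57.7, 24.7 and 0 in ICM. The ICM values rest on 13, 2 and 0 reads, the change was -1.37 ± 0.43 (adjusted p = 0.016), and the call was lost without young replicate 3 (adjusted p = 0.099). HSPE1 footprints fell by 1.04 ± 0.36 in ICM and 1.05 ± 0.24 in old, the first lost without young replicate 2, young replicate 3, ICM replicate 1 or ICM replicate 2 (adjusted p between 0.052 and 0.10). The HSPA9 calls were lost in ICM without young replicate 2, young replicate 3 or ICM replicate 2 (adjusted p = 0.13, 0.15 and 0.18), and in old without either of these young replicates, old replicate 1 or old replicate 3 (adjusted p between 0.083 and 0.11).

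Over all members, 33 of 37 passed the filter on low counts in footprints, and CRYAB, HSPA4L, BAG1 and HSF1 did not. In ICM against young 10 of 33 were called, 3 higher and 7 lower, where 26.6% of 4643 tested genes were called, 13.7% higher and 12.9% lower. In old against young 13 were called, 3 higher and 10 lower, against 36.3% of all genes, 19.3% higher and 17.0% lower. The count in ICM was 6 without young replicate 3. The count in old was 5 without young replicate 2, 6 without young replicate 3, 6 without old replicate 1 and 8 without old replicate 3, and without young replicate 1 and old replicate 2 together the counts were 14 in ICM and 16 in old. In DESeq2 the counts were 6 and 7.

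HSPB6, HSPB8 and BAG3 were the 3 members called higher in footprints in ICM, and HSPB8, BAG3 and DNAJB6 in old. HSPB6 footprints were 247, 139 and 124 CPM in young, 152, 237 and 125 in old, and 635, 618 and 456 in ICM. All ICM libraries lay above all others, and the log2 change was 2.09 ± 0.23 (adjusted p = 1.5e-08), a call that every alternative kept. BAG3 footprints rose by 1.33 ± 0.24 in ICM, lost without ICM replicate 1 (adjusted p = 0.10), and by 0.69 ± 0.21 in old, lost without young replicate 2, young replicate 3, old replicate 1 or old replicate 3 (adjusted p between 0.076 and 0.23). HSP90AA1 fell by 0.67 ± 0.17 in ICM, a call that every alternative kept, and by 0.49 ± 0.16 in old, lost without young replicate 2, young replicate 3 or old replicate 2 (adjusted p between 0.093 and 0.17). HSPH1 (-0.66 ± 0.20) and HSPA4 (-0.63 ± 0.20) were called lower in old, and DNAJB6 higher (0.53 ± 0.20), although the libraries of HSPA4 and DNAJB6 overlapped. All 3 calls were lost without young replicate 2, young replicate 3 or old replicate 1, those of HSPA4 and DNAJB6 also without old replicate 3, and that of DNAJB6 also without young replicate 1 (adjusted p between 0.069 and 0.56).

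Translational efficiency, the footprint level relative to the mRNA level of the same lysate, was tested for the same 33 members. In ICM against young 1 member was called, where 2.08% of 4618 tested genes were called, and in old against young 1 member, where 1.47% were. In ICM against old, 0 members were called in edgeR and in DESeq2, with 3 at an unadjusted p under 0.05 in edgeR, where 0.282% of all genes were called. PTGES3 was the member called in ICM. Its mRNA was 245, 253 and 284 CPM in young, 161, 183 and 162 in old, and 212, 189 and 205 in ICM. Its footprints were 282, 390 and 386 CPM in young, 166, 146 and 176 in old, and 133, 86.5 and 249 in ICM, on 30, 7 and 12 reads. The arrested groups lay below young in both assays, and in ICM the footprints fell more, by 1.44 ± 0.27 against 0.37 ± 0.07 for mRNA on the log2 scale. The efficiency change was -1.10 ± 0.28 (adjusted p = 0.028). It was not called without young replicate 2, young replicate 3, old replicate 1, old replicate 3, ICM replicate 1 or ICM replicate 2 (adjusted p between 0.070 and 0.27).

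HSPB8 was the member called in old. Its footprints were 17.6, 12.9 and 15.4 CPM in young, 72.9, 54.7 and 56.0 in old, and 111, 86.5 and 104 in ICM, on 1, 9 and 27 reads in young and 113, 3 and 30 in old. The young libraries lay below all others. Footprints rose by 2.13 ± 0.35 in old and 2.79 ± 0.44 in ICM. Both calls were kept in the 17 alternatives in which HSPB8 was tested, whereas HSPD1 was tested in 18. The efficiency change of HSPB8 was 1.39 ± 0.35 in old (adjusted p = 0.030) and 1.04 ± 0.42 in ICM (adjusted p = 0.21). The efficiency call in old was lost without any single young or old lysate (adjusted p between 0.068 and 0.72) and in DESeq2. HSPA1A and HSPA1B had efficiency changes of 0.87 ± 0.25 and 0.85 ± 0.26 in old (adjusted p = 0.085 and 0.11). Their mRNA fell in old while their footprints stood at 109 to 155 and 112 to 149 CPM in old against 92.9 to 107 and 100 to 106 in young, without a footprint call (adjusted p = 0.17 and 0.28). Without young replicate 2 the efficiency values had adjusted p = 0.998, and over the alternatives the lowest were 0.0080 and 0.014.

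**Figure D4:**
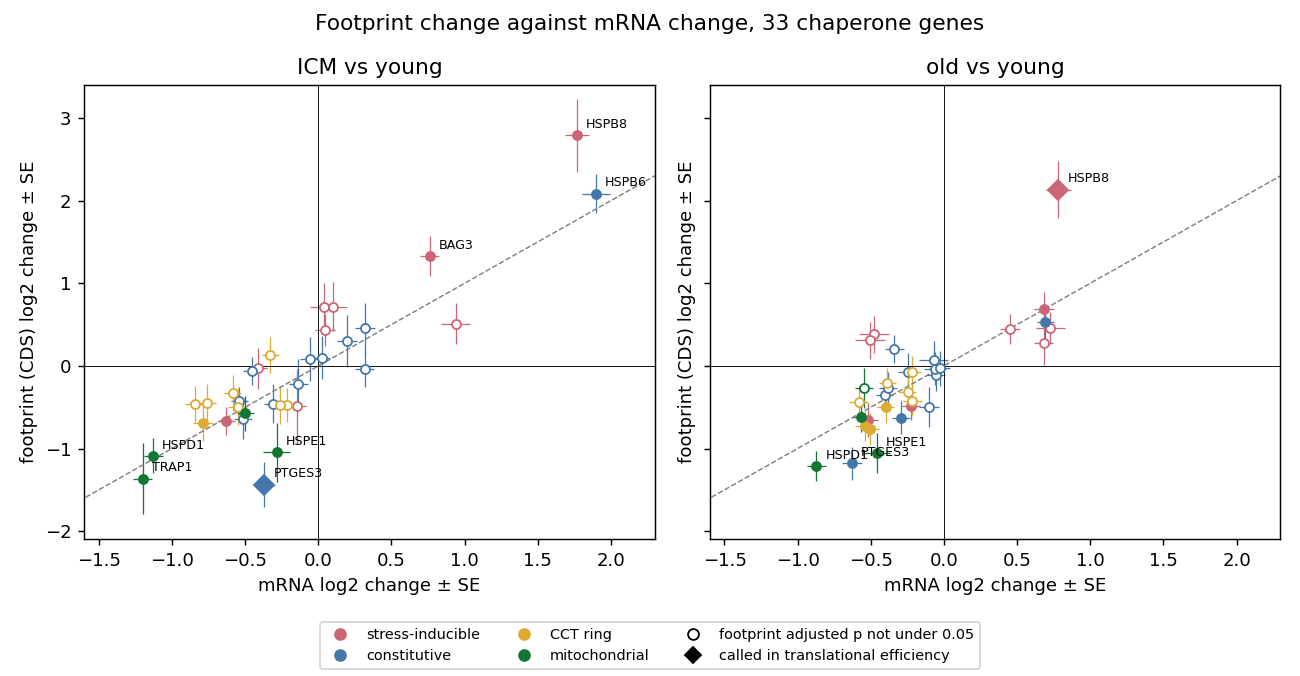
Log2 change of footprints against that of mRNA (± SE on both axes) for the 33 genes tested in both assays, coloured by role, with open points where the footprint change was not called, diamonds where translational efficiency was called and a dashed line of equal change. Names are given for called footprint changes of at least 1 on the log2 scale: HSPB8 lies above the line in both panels and PTGES3 below it.

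The summed levels of the roles put these changes on one scale. Summed mRNA of the CCT ring was 2147 ± 37.4 CPM in young, 1646 ± 81.2 in old and 1491 ± 18.9 in ICM (SD, n = 3), and that of the mitochondrial members 831 ± 4.97, 513 ± 24.3 and 470 ± 11.3. For the inducible members the sum came to 2315 ± 12.6 CPM in young, 2498 ± 29.8 in old and 2092 ± 19.8 in ICM, and the constitutive sum 4187 ± 123, 3509 ± 47.7 and 3797 ± 114. The ratio of inducible to CCT ring mRNA was 1.06 to 1.09 in young, 1.42 to 1.61 in old and 1.38 to 1.44 in ICM, so both arrested groups lay above young. The ratio of inducible to constitutive mRNA was 0.538 to 0.566 in young and 0.700 to 0.728 in old, whereas ICM, at 0.535 to 0.576, overlapped young. In footprints the ratio to the CCT ring was 0.968 to 1.12 in young, 1.04 to 1.46 in old and 1.26 to 1.36 in ICM, and the ratio to the constitutive sum overlapped in all 3 groups.

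HSP90AA1 and HSPB1 made up most of the inducible sum. Without the members with close copies or pseudogenes elsewhere in the genome, set as HSPA1A, HSPA1B, HSPA8, HSPD1, HSPE1, HSP90AA1 and HSP90AB1 with CCT6A kept in, the inducible sum in ICM was 1.19 times that of young, against 0.904 times with them, and the constitutive sum 1.21 times against 0.907. HSPB6 alone went from a mean of 154 CPM in young to 575 in ICM within that constitutive sum. Parts of reads were found for HSPD1 in 0 of 18 libraries and for HSP90AA1 in 7, but for CCT6A in 16. The setting also took out HSP90AA1 itself, at a mean of 1186 CPM in young and 766 in ICM. The part of shared reads in these shifts was not tested. In this setting the ratio to the CCT ring had a median of 0.480 in young, 0.880 in old and 0.808 in ICM.

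**Figure D5:**
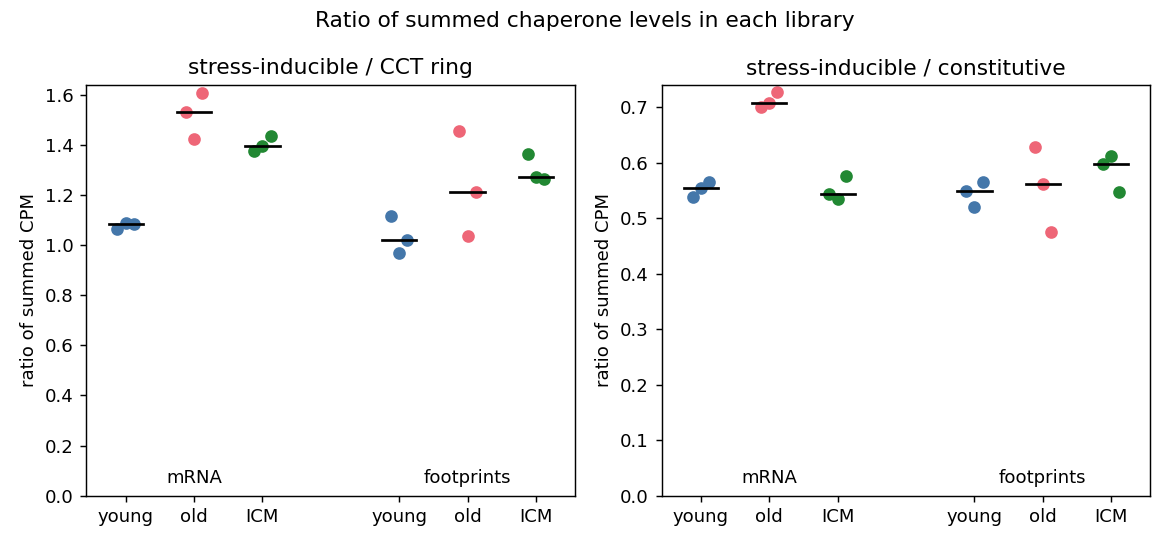
Ratio of summed CPM of the stress-inducible genes to that of the CCT ring (left) and of the constitutive genes (right) in each library, for mRNA and footprints, with bars at group medians (n = 3). In mRNA the ratio to the CCT ring is higher in old and ICM than in young, and the ratio to the constitutive genes is higher in old only.

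ICM and old cells were also compared directly, since their comparisons with young shared controls. In mRNA 23 of 37 members were called, 10 higher and 13 lower in ICM, where 63.3% of all genes were called, 30.7% higher and 32.6% lower. The largest differences were those of HSPB6 (1.97 ± 0.10), HSPB8 (0.99 ± 0.08), HSPA4L (0.91 ± 0.12), DNAJB1 (-0.83 ± 0.06), DNAJB6 (-0.67 ± 0.06) and TRAP1 (-0.65 ± 0.07), each described above. HSPA1A and HSPA1B were higher in ICM, by 0.52 ± 0.10 and 0.60 ± 0.10, and HSP90AA1 was lower, by 0.40 ± 0.06 on the log2 scale. HSP90AB1 was called at -0.14 ± 0.06 (adjusted p = 0.049), a call that was lost without young replicate 2, any old replicate, ICM replicate 1 or ICM replicate 3 (adjusted p between 0.052 and 0.19). In footprints HSPB6 alone was called, at 2.01 ± 0.23 (adjusted p = 3.3e-08), where 13.4% of all genes were called, 5.79% higher and 7.62% lower. That count of 1 became 2 without young replicate 1, ICM replicate 1 or ICM replicate 2, and 3 without old replicate 2 or ICM replicate 3.

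Of 59 further chaperone, co-chaperone and folding genes outside the 37, 55 were tested in mRNA. In ICM 14 were higher and 19 lower, with a median of -0.04, and in old 10 were higher and 19 lower, with a median of -0.09. That is 60.0% and 52.7% of those tested, against 71.0% and 66.1% of all genes. In ICM the largest rises were those of DNAJB2 (0.70 ± 0.06), DNAJC5 (0.67 ± 0.07) and DNAJB14 (0.63 ± 0.10), which are HSP40 genes. The largest falls were those of DNAJC9 (-1.46 ± 0.08), an HSP40 that also handles histones, SERPINH1 (-1.21 ± 0.06), the collagen chaperone HSP47, and GRPEL2 (-0.91 ± 0.11), a nucleotide exchange factor of the matrix HSP70. In old the largest rises were those of DNAJC5 (0.77 ± 0.07), DNAJB14 (0.52 ± 0.10) and HSBP1 (0.48 ± 0.07), a small binding partner of HSF1. The largest falls were those of FKBP5 (-2.23 ± 0.10), GRPEL2 (-1.04 ± 0.12) and the matrix protease LONP1 (-0.92 ± 0.07). FKBP5, a steroid receptor co-chaperone related to FKBP4, was at 36.6 to 38.2 CPM in young, 7.69 to 8.70 in old and 23.8 to 28.7 in ICM. In footprints 35 of the 59 were tested, 2 were higher and 2 lower in ICM, and 4 were higher and 4 lower in old, against 26.6% and 36.3% of all genes called.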

How the data were processed

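The members and gene lists were chosen with earlier results of these data known. The deposited tables of the authors hold estimated counts (expected counts) per gene symbol and transcript region, not scaled to depth. The submitters' processing notes name STAR 2.6.0c, featureCounts, DESeq2, deepTools and GRCh37, without saying which made these tables, and how reads with several matches were placed is not given in the sources used here. Groups and replicate numbers came from sample titles. Rounded counts of all genes went into quasi-likelihood fits, with glmQLFit and glmQLFTest of edgeR 4.0.16 (R 4.3.3), after TMM scaling and filterByExpr, and each assay's 9 libraries shared 1 fit. Translational efficiency was the interaction of assay and condition over 18 libraries with the lysate as a block, which rests on the methods. The study's anota2seq was not used. Each SE was the log2 change divided by the root of its F value. Libraries of 1 condition came from separately grown cultures of 1 strain, so p-values measure the spread between cultures.

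Values in every library are given for the called member of each role with the largest rise and fall against young in mRNA, for members called in translational efficiency or in opposite directions, and for HSPA1A, HSPA1B and HSF1. Of the other chaperones, the 3 largest rises and falls with a mean of at least 5 CPM are named. Coding lengths were those of GENCODE v44 canonical transcripts on GRCh37, since the protein sequences planned for this were not used here. The fits were also run on simulated data, and no result given here rests on that run. Its counts were drawn for each library separately, so it could not test the block of lysates. The young libraries were the controls of both comparisons with young. Alternatives were DESeq2 1.42.0, RLE scaling, other filters and thresholds, replicate blocks, CDS reads only, thinned Ribo-seq libraries and leaving out lysates. Counts carry sampling error that is largest in the shallow Ribo-seq libraries. Results for HSPA1A, HSPA1B, HSPE1 and CCT6A are uncertain as single genes, because copies share their reads. Parts of reads were also found for HSPA8 in 12 of 18 libraries and for HSP90AB1 in 11. In young, HSP90AB4P drew 1559 estimated mRNA reads against 28339 for HSP90AB1. In footprints it drew 880 reads over all regions against 4877 CDS reads for HSP90AB1, a larger part than in mRNA. The levels of HSPA8 and HSP90AB1 are thus less certain too, and those of HSP90AB1 more so in footprints.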

Additional observations from a re-analysis of the deposited data

How the results depend on the processing

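Leaving out 1 lysate gave 6 to 14 calls in ICM against young (10 in the report), 5 to 16 in old against young (13) and 1 to 3 in ICM against old (1), and in mRNA 26 to 30 (28), 32 to 33 (32) and 22 to 26 (23). For translational efficiency it gave 0 to 1 in ICM against young (1), 0 to 3 in old against young (1) and 0 in ICM against old (0). With an absolute log2 change over 0.6 required, the mRNA counts were 11, 9 and 7. At an adjusted p under 0.15, Ribo-seq gave 20 in ICM against young and 5 in ICM against old, and efficiency gave 3 in old against young. Without the filter on low counts, Ribo-seq gave 8 in old against young and 2 in ICM against old, and efficiency gave 0 in old against young. DESeq2 gave 6 and 7 Ribo-seq calls against young and 0 for efficiency in old. Without young replicate 1 and old replicate 2 together, Ribo-seq gave 4 in ICM against old and efficiency gave 0 in old against young. Thinned to 46170 reads a library, Ribo-seq gave 2 calls in old against young, with 25 members tested. The cause of these shifts was not tested.

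Whether samples with the same replicate number share more than that number is not known here. Their deviations across conditions correlated with r between -0.0555 and 0.103 in mRNA-seq and 0.00467 and 0.0557 in Ribo-seq. With the replicate block, Ribo-seq gave 6 calls in old against young and the other counts stayed within 1.5 times. Without the block of lysates, efficiency gave 5 calls in old against young. The lysates' deviations in mRNA and footprints correlated with r between -0.0795 and 0.136. Low values thus came even where the lysate was shared, so they cannot show what samples with the same replicate number share.

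With scaling by raw library totals, the median log2 change of all genes in old against young was -0.11 in mRNA and -0.12 in Ribo-seq. Summed mRNA over young was then 1.01 in old and 0.920 in ICM for inducible members and 0.785 in old for constitutive ones. It was 0.718 in old and 0.707 in ICM for the CCT ring and 0.578 in old for mitochondrial members. Footprint sums in old were then 0.745 for the ring and 0.521 for mitochondrial members. The setting without members with close copies also took out abundant ones, HSP90AA1 and HSPA8 among them. In it the inducible mRNA sum was 1.37 in old and 1.19 in ICM, the latter reversed from 0.904. The inducible footprint sum was 1.26 in old, reversed from 0.967, and 1.41 in ICM. The constitutive mRNA sum was 0.932 in old and 1.21 in ICM, reversed from 0.907, and its footprint sum in ICM 1.07, reversed from 0.950. The mitochondrial sums were 0.677 and 0.641 in mRNA and 0.739 and 0.633 in footprints. The ratio of inducible to constitutive sums was then 0.632 in young, 0.946 in old and 0.602 in ICM in mRNA, and 0.653, 0.946 and 0.954 in footprints. The ratio to the CCT ring was 0.480, 0.880 and 0.808 in mRNA, and 0.373, 0.597 and 0.679 in footprints.

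Of 5438 values recomputed for 309 single-gene results, 5150 kept their side of the threshold, 175 lost a call and 113 gained one. Of those called in the main fit or in the alternative, 0 changed direction. Changes of direction among values called in neither were not counted. Depth limits the footprint values, as the shallowest library held 46238.7 CDS reads.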
